A study of Chlorocebus aethiops with 30 samples.

Results

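The genes described here encode the protein subunits of the mitochondrial ribosome and of the machinery that brings proteins into mitochondria. They were chosen by gene name, as every row of the comparison of trypsin and TrypLE at 0 h whose symbol starts with MRPL, MRPS, TIMM or TOMM followed by a digit. Of the 1237 genes in that table, 15 met this rule. They comprise 6 MRPL genes, named for the large ribosomal subunit, 6 MRPS genes, named for the small subunit, 1 TIMM gene of inner membrane import and 2 TOMM genes of outer membrane import. Only genes for which the authors' test gave an unadjusted p below 0.05 are in that table. Each of the 15 therefore had to differ between the enzymes to be listed, and the share of them that differ is no finding.

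RNA was sequenced from Vero cells (epithelial, from the kidney of an African green monkey), labelled wild type and grown in serum-containing medium. The labels give 30 samples in 10 groups of 3. Values for single libraries were used for 2 groups, cells collected directly (0 h) after digestion with trypsin at 37 °C or with TrypLE, a recombinant substitute for trypsin, at 37 °C. Group means without replicates were used for these and for 5 others, namely cells detached with an enzyme-free solution at 37 °C (the control) and cells returned to culture for 8 or 24 h after either enzyme and then collected with an enzyme-free solution. All groups share the same cell line, and no group carries a genetic change. The labels do not say that the 3 numbered replicates were separate cultures. The p-values set the difference between the enzymes against the scatter of these samples, and that scatter may be technical. They may therefore not extend to new cultures. Of 24 marker genes of kidney epithelium, fibroblasts, immune and endothelial cells, 0 were listed, so the labelled cell type was not checked here.

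Mitochondria keep a small genome whose messages all encode subunits of the respiratory chain and ATP synthase, and a dedicated ribosome translates them. All protein subunits of that ribosome are encoded in the nucleus, made in the cytosol and imported. Import starts at the translocase of the outer membrane (TOM), and translocases of the inner membrane (TIM) act after it. Small chaperones in the intermembrane space carry certain hydrophobic proteins and are not part of every import route. In bulk RNA, fewer transcripts per cell and a smaller share of the library cannot be told apart.

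Of the 15 genes, 14 were lower after trypsin than after TrypLE and 1, MRPS30, was higher, and the authors' deposited table gives them a median of -0.49 on the log2 scale (trypsin over TrypLE). The median over all 1237 listed genes was -0.29, and 57.1% of them were lower after trypsin. At an adjusted p below 0.05, 6 of the 15 passed in the authors' deposited table, all lower after trypsin. These are TIMM8B, TOMM7, MRPS21, MRPL33, MRPS18C and TOMM22. Over the listed genes 20.3% passed, and 17.5% passed and were lower. The same 6 had an adjusted p below 0.01, as did 14.6% of listed genes. Over the 15194 genes that took part in the authors' adjustment, 1.65% passed and 1.42% passed and were lower. Among listed genes shorter than 1000 bases, 40.3% passed and were lower. Values below are normalized counts, meaning read counts that the authors divided by a size factor for each library.

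Both TOMM genes passed. TOMM7 encodes a small subunit of the TOM complex, which is also known to stabilise the kinase PINK1 at the outer membrane. Its normalized counts were 175.0, 159.2 and 156.7 after trypsin and 341.1, 292.4 and 256.3 after TrypLE. The trypsin libraries lay close together, all below the lowest TrypLE library, and their mean was 55.2% of the TrypLE mean. The means were 163.6 ± 9.91 and 296.6 ± 42.5 (SD, n = 3 each). The authors' deposited table gives a log2 fold change of -0.86 and an adjusted p of 0.000402.

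TOMM22 encodes the receptor that holds the TOM complex together and passes precursors to its pore. It had 488.8, 344.9 and 373.8 normalized counts after trypsin against 806.9, 626.0 and 525.9 after TrypLE. The groups did not overlap, although the TrypLE libraries were spread over a wide range with replicate 1 highest. Its log2 fold change in the authors' deposited table is -0.70, and its adjusted p, 0.00964, is the largest among the 6.

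TIMM8B, the single TIMM gene listed, encodes a small chaperone that carries hydrophobic proteins across the intermembrane space. It had 120.2, 111.2 and 138.7 normalized counts after trypsin against 323.6, 242.9 and 203.7 after TrypLE. All trypsin libraries were below all TrypLE libraries, and the trypsin mean was 48.1% of the TrypLE mean. This was the lowest ratio of the 15, with means of 123.4 ± 14.0 and 256.7 ± 61.1 (SD, n = 3 each). On the log2 scale the authors' deposited table gives -1.06, and an adjusted p of 0.00015.

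Among the genes with MRPS names, 2 of 6 passed, both lower. MRPS18C is one of the mitochondrial relatives of bacterial ribosomal protein S18. It had 121.2, 94.9 and 115.4 normalized counts after trypsin against 288.5, 165.9 and 183.4 after TrypLE. Its groups did not overlap, and TrypLE replicate 1 stood well above the other TrypLE libraries. The authors' deposited table has it at -0.94 on the log2 scale (adjusted p = 0.00793).

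MRPS21, the relative of bacterial ribosomal protein S21, had 400.8, 312.2 and 373.8 normalized counts after trypsin against 614.0, 519.6 and 531.9 after TrypLE. The trypsin mean was 65.3% of the TrypLE mean and the groups did not overlap. An adjusted p of 0.00521 and -0.62 on the log2 scale stand in the authors' deposited table.

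The other genes with MRPS names did not pass. MRPS17 had means of 772.3 ± 125.6 normalized counts after trypsin against 1023.2 ± 160.4 after TrypLE, and MRPS33, a subunit without a bacterial counterpart, 946.1 ± 195.6 and 1199.3 ± 132.5 (SD, n = 3 each). The libraries of MRPS33 overlapped between the groups and those of MRPS17 did not. MRPS36 carries a ribosomal name, but in human cells its product is known as a subunit of the oxoglutarate dehydrogenase complex, and it did not pass either.

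MRPS30 was the exception in direction. Despite its name, its product lies in the large subunit of the human mitochondrial ribosome. It had 1184.8, 1309.2 and 1338.6 normalized counts after trypsin against 1139.3, 970.6 and 1116.6 after TrypLE. Every trypsin library was above every TrypLE library, by a small margin for replicate 1 of each group. The authors' deposited table lists it at 0.25 on the log2 scale, with an adjusted p of 0.619 that did not pass. It is also the longest of the 15 by far, at 8526 bases against 462 to 1363 bases for the others.

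Among the genes with MRPL names, 1 of 6 passed. MRPL33, a relative of bacterial ribosomal protein L33, had 922.8, 707.1 and 792.1 normalized counts after trypsin against 1311.8, 1077.8 and 1152.0 after TrypLE. The groups did not overlap, and the trypsin mean was 68.4% of the TrypLE mean. Its entry in the authors' deposited table is a log2 fold change of -0.55 (adjusted p = 0.00634).

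MRPL36, a short relative of bacterial L36, was the gene closest to the threshold that did not pass. It had 403.7, 278.6 and 341.0 normalized counts after trypsin against 473.6, 479.3 and 464.1 after TrypLE. The TrypLE libraries were nearly equal, whereas the trypsin libraries were not, and the groups did not overlap. The adjusted p in the authors' deposited table is 0.158, at -0.47 on the log2 scale.

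MRPL20 and MRPL14, which bind ribosomal RNA in the large subunit, were the most abundant of the 15 per length. Their means were 1301.0 ± 209.0 and 1083.3 ± 177.8 normalized counts after trypsin and 1610.4 ± 27.3 and 1323.8 ± 40.8 after TrypLE (SD, n = 3 each). Neither passed in the authors' deposited table, where MRPL20 is at -0.31 (adjusted p = 0.432) and MRPL14 at -0.29 (adjusted p = 0.566) on the log2 scale. The 8 genes that were lower and did not pass, MRPL50, MRPL52 and MRPS36 among them, had trypsin means of 68.7% to 81.8% of the TrypLE mean and log2 fold changes from -0.54 to -0.29.

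**Figure D1:**
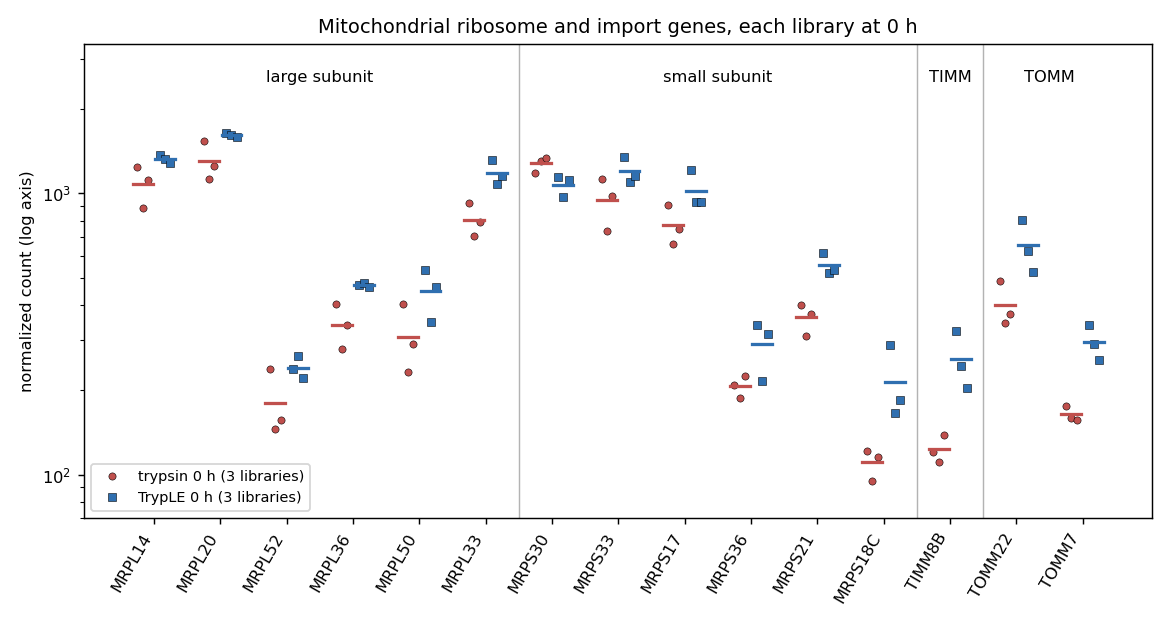
Normalized counts (log axis) of the 15 genes in each of 3 trypsin libraries (red circles) and 3 TrypLE libraries (blue squares) at 0 h, with horizontal bars at the group means. In 11 genes the libraries of the groups do not overlap, and in the gene MRPS30 the trypsin libraries lie on the higher side.

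The libraries of the groups did not overlap in 11 of the 15 genes, against 75.6% of all listed genes, so this share is near that of the table. Within a group, the libraries also stood in a similar order across the 15 genes. Trypsin replicate 1 was the highest trypsin library in 12 of the 15 genes, trypsin replicate 2 the lowest in 13, and TrypLE replicate 1 the highest TrypLE library in 13. The shares of listed genes with these positions are not given, so the counts have no background. Relative to the mean of the 6 libraries, the median log2 value of the 15 genes was 0.02, -0.49 and -0.26 for trypsin (replicates 1, 2 and 3) and 0.45, 0.15 and 0.21 for TrypLE. Trypsin replicate 1 thus lay nearer to the TrypLE libraries than the other trypsin libraries did. The 352 other listed genes under 1000 bases had -0.11, -0.48 and -0.35 for trypsin and 0.45, 0.29 and 0.22 for TrypLE. By these medians the same libraries were highest and lowest, so these positions are not particular to the 15 genes.

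When the listed genes were fitted with limma on log2(normalized count + 1), 2 of the 15 passed, TIMM8B (log2 fold change -1.03, SE 0.208, adjusted p = 0.0166) and TOMM7 (-0.85, SE 0.183, adjusted p = 0.0278). Over the 1136 listed genes that took part in the adjustment, 12.5% passed in that fit. The other 4 genes that had passed in the authors' deposited table had adjusted p of 0.0843 (MRPS18C), 0.0948 (MRPS21), 0.105 (MRPL33) and 0.107 (TOMM22) in limma. On the recovered reads edgeR called 3 of the 15, adding MRPS18C (adjusted p = 0.0272), against 15.1% of listed genes. DESeq2 called 6, the genes that passed in the authors' deposited table, against 17.3%. Leaving out single libraries changed the limma calls, but each such fit also had fewer replicates. The weight given to the variance shared between genes (prior degrees of freedom) changed as well. It ran from 6.9 without TrypLE replicate 1 to 126.7 without TrypLE replicate 3. A changed call therefore cannot be tied to the library left out. Without trypsin replicate 2, TrypLE replicate 1 or TrypLE replicate 2, limma called 0 of the 15, against 8.27%, 3.70% and 7.57% of listed genes. Of the 15, 6, 8 and 11 had an unadjusted p below 0.05 in these fits. The share of listed genes below that unadjusted p is not given for any refit, so such counts have no background. Without trypsin replicate 1 limma called MRPL33 alone (adjusted p = 0.0466, 13.2% of listed genes), and without trypsin replicate 3 TIMM8B alone (adjusted p = 0.0201, 8.10%). Without TrypLE replicate 3 it called 4, against 14.3%.

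Other scaling factors could be taken only over the listed genes, most of which were lower after trypsin. They therefore cannot show whether the calls depend on scaling. With TMM or median-ratio factors of this kind, limma called 0 of the 15, against 10.9% and 8.10% of listed genes. With each, 7 of the 15 had an unadjusted p below 0.05. That count has no background, and all 15 were listed for such a p in these same libraries. In both, 14 of the 15 were still below 0. Restricting the fit to genes with a mean of at least 100 gave 5 of the 15 (16.3% of such genes) and a term for the replicate number 4 (15.2%), while pseudocounts of 0.5 and 10 gave TIMM8B and TOMM7 again (12.0% and 12.4%).

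Levels between genes were compared as normalized counts per kilobase of gene length. After TrypLE they ran from 126.1 for MRPS30 to 2135.8 for MRPL20. MRPL14 followed MRPL20 with 1675.7 per kilobase, ahead of MRPS33 with 1088.3, MRPS17 with 1017.1 and MRPL33 with 883.6. MRPS21 was at 836.1 per kilobase, TOMM7 at 642.0, TOMM22 at 581.4 and MRPL36 at 491.0. MRPL50 and MRPL52 were at 426.3 and 403.2 per kilobase, and TIMM8B, MRPS18C and MRPS36 were at 314.6, 267.7 and 213.2. The order was similar after trypsin, where MRPL20 was again highest at 1725.4 per kilobase, but MRPS18C, with 139.2, was lowest and lay below MRPS30, with 149.8. Genes of subunits thought to be present once per ribosome, MRPS36 aside, thus differed widely in normalized count per kilobase. These values rest on the authors' gene length, which for MRPS30 is 8526 bases. The import genes that passed were among the middle and lower levels.

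The 15 genes are short, with a median length of 962 bases against 2060 bases for all listed genes, and length went together with direction throughout the table. Of the 360 listed genes under 1000 bases, 90.6% were lower after trypsin. The 8 of the 15 genes under 1000 bases had a median log2 fold change of -0.54, and the 352 other listed genes of that length -0.68, with quartiles at -1.14 and -0.40. The 6 genes from 1000 to under 2000 bases had a median of -0.52, against -0.38 for 245 other listed genes, with quartiles at -0.63 and -0.27. For genes of 2000 bases or more the others had a median of 0.33, and MRPS30, the single gene of that class, had 0.25. In the first class the 15 genes thus lay above listed genes of like length and in the second below them, each time by 0.14 on the log2 scale. The classes were not matched for abundance. All 15 genes had a mean of at least 100 normalized counts, as did 956 of the 1237 listed genes. A gene with few reads needs a larger change to be listed, and what abundance adds to these differences was not tested. The size of these differences rested on single libraries. The first was 0.09, 0.08 and 0.09 without trypsin replicate 1, trypsin replicate 3 and TrypLE replicate 1. The second was -0.08, -0.05 and -0.22 without trypsin replicate 2, TrypLE replicate 1 and TrypLE replicate 2. In the shorter class 4 of the 8 genes passed and were lower, against 40.1% of the others, and in the next class 2 of 6, against 11.8%.

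Each gene was then set beside the other listed genes whose length was within 20% of its own. By this measure 9 of the 15 were below and 6 above the median of genes of like length, again without matching for abundance. TIMM8B was farthest below, by -0.57 on the log2 scale (its neighbours in length had a median of -0.49), followed by MRPS18C (-0.44), TOMM22 (-0.28) and MRPL33 (-0.16). TOMM7, one of the shortest genes, was 0.16 above, since 112 genes of its length had a median of -1.02. MRPL52, MRPL14 and MRPL20 were 0.24, 0.22 and 0.20 above, so their change was smaller than that of the typical listed gene of their length. MRPS21 and MRPL36 differed from genes of like length by -0.03 each. MRPS30, in turn, was -0.10 below the median of 0.35 over 116 listed genes of its length, of which 8.62% were lower after trypsin.

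**Figure D2:**
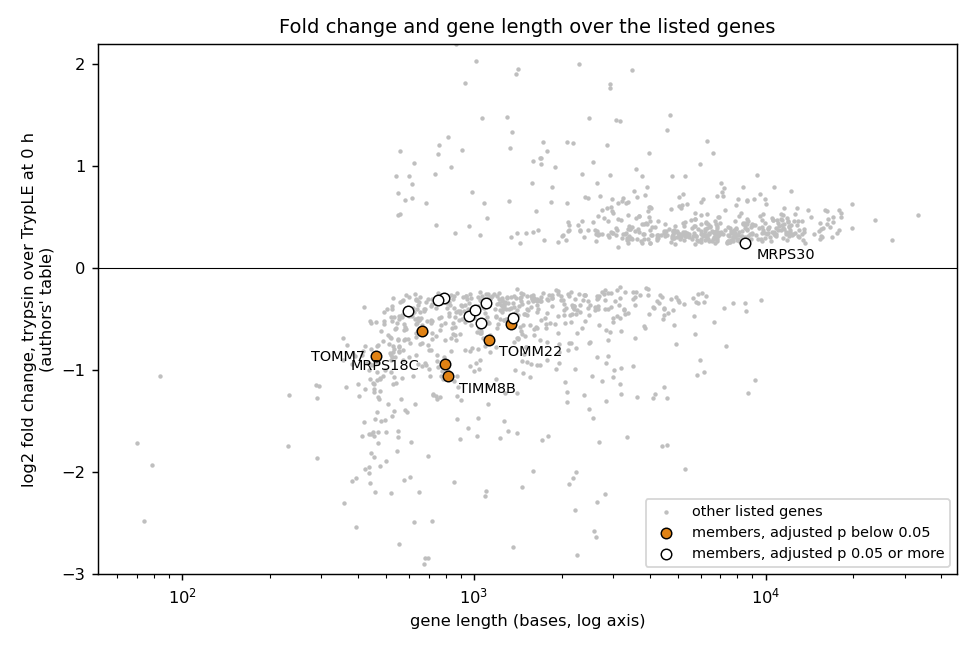
Log2 fold change of trypsin over TrypLE at 0 h in the authors' deposited table against gene length in bases (log axis) for the listed genes, with the 15 genes as large circles, filled where the adjusted p is below 0.05. The 14 lower genes lie among many short genes that are also lower, and MRPS30 lies among long genes that are mostly higher; 61 other genes beyond -3 or 2.2 are outside the plot.

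With a smooth curve on length subtracted from every library, the 15 genes had a median log2 fold change of 0.01, with 7 lower and 8 higher. In that limma fit 0 of the 15 passed, against 2 before (no other tool was run on these values). The unadjusted p was below 0.05 for 3 of the 15, a count again given without its share over the listed genes. These 3 were TIMM8B, lower at -0.47 (SE 0.175, adjusted p = 1.0), and MRPL20 and MRPL14, higher at 0.28 each (SE 0.0757 and 0.0811, adjusted p = 0.302 and 0.421). TOMM7 went from -0.85 to 0.01 (SE 0.132), MRPS21 from -0.62 to 0.05 and MRPS18C from -0.90 to -0.32 (SE 0.185), while TOMM22 and MRPL33 went to -0.24 and -0.15. MRPS30 went from 0.25 to -0.09. Over all listed genes in the adjustment, 5.11% passed in this fit, and 9.68% when it also had a term for the replicate number, where again 0 of the 15 passed. Because the curve was fitted on listed genes only, a change common to short genes is removed with it, so a change of these genes and an effect of length cannot be told apart. Fitting the trend without the 15, cytosolic ribosomal protein and oxidative phosphorylation genes gave a median of 0.00 and 0 of 15 passing.

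**Figure D3:**
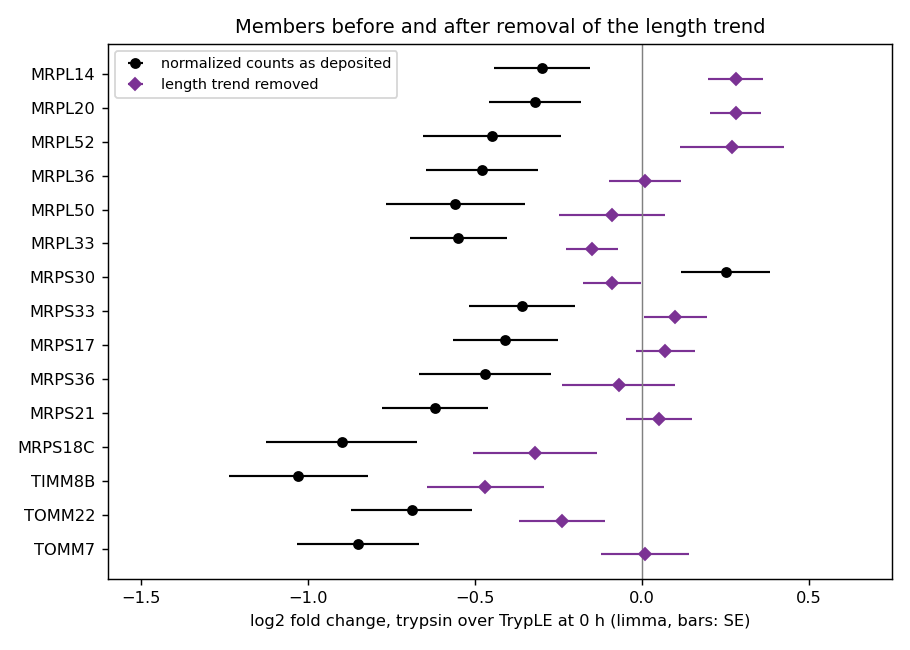
Log2 fold change (limma, trypsin over TrypLE at 0 h) of the 15 genes with SE bars, before (black circles) and after (purple diamonds) removal of the trend on gene length. Before removal 14 genes are below 0. After removal 7 are below and 8 above, and TIMM8B is lowest at -0.47.

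Further groups of short genes were read in the same table, also without a test of their difference from the 15. All 52 listed cytosolic ribosomal protein genes were lower (median length 734 bases, median log2 fold change -0.53, 34 passing). All 36 listed genes of oxidative phosphorylation matched by name, the complexes to which products of mitochondrial translation belong, were lower as well (median length 705 bases, median -0.63, 24 passing). Their shares that passed were 65.4% and 66.7% against 40.0% of the 15. Of all listed genes 20.3% passed. Among listed genes under 1000 bases, 40.3% passed and were lower, and 90.6% were lower with or without passing. By median both groups are also shorter than the 15.

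Most genes of the families are not in the table and were not analysed here. Of 101 human symbols of the 4 families, 86 were not listed, and the 15 listed are 14.9% of them, against 7.48% of the genes in the authors' adjustment that were listed. By family 12.2% of 49 MRPL, 20.7% of 29 MRPS, 7.14% of 14 TIMM and 22.2% of 9 TOMM symbols were listed. How many of the others took part in the adjustment is not known here.

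Of 69 further genes that act in mitochondrial translation and import under other names, 5 were listed and 2 passed, both lower after trypsin. The 5 are 7.25% of the 69 symbols, near the 7.48% listed among all genes in the adjustment, and of all listed genes 20.3% passed. ROMO1, a small inner membrane protein related to a yeast regulator of the TIM23 channel, had 395.9, 300.0 and 328.3 normalized counts after trypsin against 805.0, 682.8 and 591.7 after TrypLE. Its groups were far apart, with a trypsin mean at 49.3% of the TrypLE mean and -1.02 on the log2 scale in the authors' deposited table (adjusted p = 9.88e-08). ROMO1 is 465 bases long, close to TOMM7.

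DNAJC19, the J-protein of the motor that pulls proteins through the inner membrane, is longer at 2354 bases. It had 445.8, 404.1 and 433.1 normalized counts after trypsin against 705.6, 613.1 and 611.0 after TrypLE. The groups did not overlap, and the authors' deposited table puts it at -0.59 on the log2 scale (adjusted p = 0.00203), whereas 27.5% of the other listed genes of 2000 bases or more were lower. IMMP1L, a peptidase of the inner membrane, CHCHD1, a small subunit protein of the mitochondrial ribosome, and SARS2, the mitochondrial seryl-tRNA synthetase, did not pass, and stand in the authors' deposited table at -0.54, -0.32 and 0.38 on the log2 scale. Of 10 translation factors and 15 assembly factors of the mitochondrial ribosome 0 were listed, as was 1 of 17 mitochondrial aminoacyl-tRNA synthetases.

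The authors' annotation also describes 3 unnamed loci as mitochondrial ribosomal proteins, which the rule on names leaves out and which were picked after their values were seen. In the authors' deposited table LOC119624402, described as protein L40, is at -0.60 on the log2 scale (adjusted p = 0.247) and LOC103214551, a pseudogene described as S31, at -0.95 (adjusted p = 0.64). LOC103247999, described as L35, went the other way at 1.12 (adjusted p = 0.654), on 35.2, 15.3 and 28.6 normalized counts in the trypsin group and 6.8, 17.4 and 12.2 after TrypLE, which overlap. Whether any of the 15 genes has a copy similar enough to share reads was not examined here.

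Of the 15 genes, 2 are among the 340 genes for which the authors deposited means of 7 groups, on an FPKM scale (reads per length and depth) and without replicates. TOMM7 was at 38.1 in the enzyme-free control, 22.5 directly after trypsin and 40.8 directly after TrypLE. At 8 h it was at 47.9 after trypsin and 31.9 after TrypLE, and at 24 h at 47.3 and 24.0. The trypsin mean was thus the lower at 0 h and the higher at both later times.

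TIMM8B followed the same order. Its authors' means were 16.4 in the control, 9.6 and 20.01 at 0 h after trypsin and TrypLE, 22.8 and 16.9 at 8 h, and 21.4 and 12.5 at 24 h. Trypsin over TrypLE was thus a ratio of 0.48 at 0 h, 1.34 at 8 h and 1.71 at 24 h for TIMM8B, and of 0.55, 1.5 and 1.97 for TOMM7. The medians over the 340 genes were 0.81, 1.05 and 1.02. Length was known only for the 206 of the 340 genes that were also listed at 0 h. The 102 of these under 1000 bases had medians of 0.55, 1.08 and 1.35, and 94 of them were above 1 at 24 h. They were listed for a difference between the enzymes at 0 h. Their 0 h median therefore does not describe short genes in general. Both genes lay near or below the median of these 102 short genes at 0 h and above it at 8 and 24 h. At 8 and 24 h these short genes were also mostly on the trypsin side. With 1 mean per group these differences have no replicate check.

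Against the control, which all these ratios share, the trypsin mean of TOMM7 was 0.59, 1.26 and 1.24 at 0, 8 and 24 h and the TrypLE mean 1.07, 0.84 and 0.63. For TIMM8B the ratios were 0.59, 1.39 and 1.3 after trypsin and 1.22, 1.03 and 0.76 after TrypLE. At 0 h the trypsin group was therefore farther from the control than the TrypLE group in both genes. The same short genes, all of them listed at 0 h, had median ratios to the control of 0.60, 1.01 and 1.16 after trypsin. After TrypLE their medians were 1.15, 0.97 and 0.84.

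**Figure D4:**
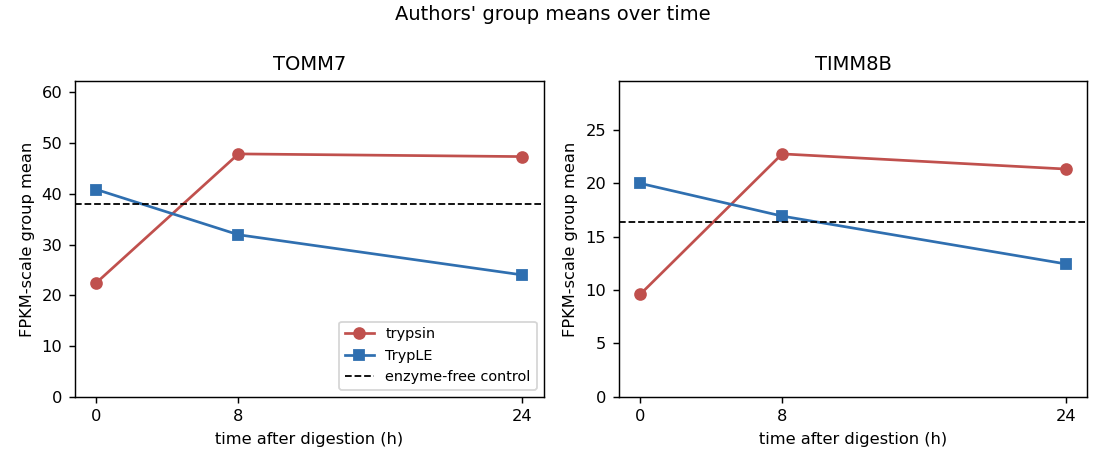
The authors' FPKM-scale group means of TOMM7 and TIMM8B at 0, 8 and 24 h after digestion with trypsin (red) or TrypLE (blue), with the enzyme-free control as a dashed line and no error, since each point is a mean without replicates. In both genes the trypsin line starts below the TrypLE line at 0 h and is above it at 8 and 24 h.

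Of the 274 pathways in the authors' deposited pathway table, 1 contains any of the 15 genes, namely TOMM7. It is 1 of 7 listed genes of mitophagy, the removal of damaged mitochondria, all 7 lower after trypsin, and that pathway was not enriched (7 of 560 annotated listed genes against 82 of 8172 background genes, unadjusted p = 0.33).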

How the data were processed

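The submitters' processing notes name HISAT2 2.0.5 and featureCounts 1.5.0-p3. Genome build, annotation, strand setting and the differential test used are not given in the sources used for this text. Positions and sequences were not used here. The deposited 0 h table holds a signal per library, the read count that the authors divided by a size factor. Dividing each column by its smallest nonzero value gave whole numbers of reads within 0.01 for 100% of values, that is 1656319 to 2192333 reads over the listed genes per library; the depth over all genes is unknown. For TrypLE replicate 1 few low values bear on this. The log2 fold change, p-value and adjusted p-value are as the authors deposited them; a Benjamini-Hochberg adjustment over 15194 genes gave the same adjusted p within 1% for 100% of the listed genes under 1. A further 101 listed genes of at most 13.1 mean normalized counts carry an adjusted p of 1 and lie outside that adjustment; none is among the 15. The authors' union table names no unit. Its deposited means are the normalized count over gene length in kilobases, over 15.8 (coefficient of variation 0.0143% over 206 genes), an FPKM scale. Gene length in bases is the authors' value. The 3 groups of TrypLE used from 4 °C, 9 samples, were not analysed here.

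Since the table is limited to genes under an unadjusted p of 0.05, the authors' adjusted p at 0.05 is the main call. Refits of the listed genes used limma 3.58.1 (log2 of normalized count + 1, trended prior), edgeR 4.0.16 (quasi-likelihood) and DESeq2 1.42.0 in R 4.3.3 with adjustment over 15194 genes, and Python 3.11.15. Genes that are not listed count in that adjustment but could not be refitted, and were treated as having larger p. Variance estimates shared between genes came from the listed genes alone. The adjusted p of the refits are therefore approximate. On simulated counts for the 1237 genes, limma called 44.8%, 94.0% and 100% of genes changed by 0.5, 1 and 1.5 on the log2 scale. It also called 1 of 1037 unchanged genes. The simulated spread was set by a formula, not taken from these libraries, and held no trend on length. These shares therefore need not hold for the real comparison. The length trend was a lowess curve on log10 gene length, subtracted from each library. Genes named with values are those passing in the authors' table, those higher after trypsin, the 2 most abundant per kilobase in each family and the closest on each side of the threshold; MRPL50, MRPL52, MRPS36, the 3 unnamed loci and the single-gene contrasts with length neighbours were named after their values were seen. The members and lists were chosen with earlier results of these data known. Alternatives were pseudocounts of 0.5 and 10, other scaling factors, a mean of at least 100 normalized counts, each library left out, a replicate block, the tools above and the removal of the length trend.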

Additional observations from a re-analysis of the deposited data

How the results depend on the processing

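The number of the 15 genes that passed in the authors' deposited table, 6, was the same at an adjusted p of 0.01 and with DESeq2. It was 2 with limma and 3 with edgeR. A mean of 100 or more could not change it, since all 15 genes meet that filter and the deposited adjusted p was kept. The limma count of 2 was also 2 with pseudocounts of 0.5 and 10, and became 5 with the filter at a mean of 100, 4 with the replicate block, 3 with edgeR and 6 with DESeq2. It was 0 with TMM factors, 0 with median-ratio factors and 0 in each of 3 fits with the length trend removed, 1 of them with the replicate block. The TMM and median-ratio factors came from the listed genes alone, so their counts of 0 cannot show whether the calls depend on scaling. Leaving out 1 library gave 0 to 4. Same-numbered libraries did not deviate together (correlations of -0.01, 0.09 and -0.03 over 956 genes), so the numbers were not taken as pairs. The median log2 fold change of the 15 ran from -0.65 to -0.37 with 1 library left out, was -0.31 and -0.28 under TMM and median-ratio factors, which moved the limma median over the 1136 genes tested from -0.30 to -0.13 and -0.10, and changed sign to 0.01 and 0.00 with the trend removed. Of the named genes, MRPL36 (0.01), MRPL20 (0.28), MRPL14 (0.28), MRPS21 (0.05), MRPS17 (0.07), MRPS33 (0.10 or 0.09), MRPS30 (-0.09) and TOMM7 (0.01 or 0.00) changed sign in those fits, with and without the replicate block. Of 204 values over 12 named genes and all alternatives, 151 kept direction and side of the threshold and 24 changed sign. With the direction kept, 16 lost and 13 gained a call. TOMM7 also lost its call where it changed sign, and those values are not among the 16. Only TIMM8B and TOMM7 had a limma call to lose, so most values that kept their side belong to genes that limma did not call. The causes were not tested. The differences from genes of like length class kept their sign with 1 library left out, at 0.08 to 0.16 under 1000 bases (0.14 with all libraries) and -0.22 to -0.05 from 1000 to under 2000 bases (-0.14 with all). The count of 9 genes below their length neighbours was 8 or 9 under other windows. On simulated counts, with a spread set by a formula, limma called 44.8% of genes changed by 0.5 on the log2 scale. Changes of that size can thus be missed, but that share need not hold for these libraries.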
